A study of Mus musculus with 14 samples.

Results

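Genes that mark T cells and natural killer (NK) cells were read in mouse duodenum with and without tumors. The set was a written list of 37 genes, chosen by name for their place in these cells: the CD3 complex and its signalling partners, T cell surface and costimulatory molecules, the CD8 and CD4 coreceptors, regulatory T cell genes, cytotoxic effectors, NK-type receptors, and the T-box factors with the receptor chains for interleukin-2 and interleukin-15. Of these, 35 had a value and are described here, among 19938 genes tested; Lck and Il2rg are not analysed here. Each of the 35 was read by 1 transcript cluster, the array's set of short probes for a gene.

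All 9 mice were on a mixed background of 129S7/SvEv and C57/BL6 and were matched for age, with the age itself not given. Wildtype duodenum came from 3 mice. The adjacent group held normal duodenum from 5 mice of genotype Lrig1-CreERT2/CreERT2, in which the CreERT2 insertion disrupts both copies of Lrig1, and the tumor group held duodenal tumors from 6 mice of that genotype. Adjacent replicates 1 to 5 and tumor replicates 2 to 6 were from the same 5 mice, in that order, and tumor replicate 1 had no adjacent partner. All tissue was proximal duodenum, labelled as epithelium in the non-tumor groups, and total RNA was hybridised to the Affymetrix Mouse Gene 1.0 ST array. Values are the deposited log2 signals, where a difference of 1 is a 2-fold change. Lrig1 itself read 9.03 ± 0.71 (SD, n = 3) in wildtype, 7.20 ± 0.17 (n = 5) in adjacent tissue and 8.07 ± 0.32 (n = 6) in tumors. The tumor and wildtype ranges overlapped, since tumor replicates 3 and 4 read 8.54 and 8.29, above wildtype replicate 3 at 8.22. Lrig1 was higher in tumor than in adjacent tissue in 5 of 5 mice, by 0.88 ± 0.17 (SE; adjusted p = 0.00102), and the position of its probes relative to the insertion was not analysed here, so the genotype is given as labelled.

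T cells recognise antigen through a receptor whose signal is carried into the cell by the CD3 chains, by kinases such as ZAP-70 and by adaptors such as LAT. The small intestine holds a dense population of T cells lying between the epithelial cells, the intraepithelial lymphocytes, many of which carry CD8, granzymes and receptors otherwise known from NK cells. CD4 T cells, including the FOXP3-expressing regulatory cells, lie mostly in the tissue below the epithelium. Granzymes and perforin are the stored proteins with which cytotoxic T cells and NK cells kill their targets.

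Some facts about the arrays touch the comparisons and are given first. Wildtype replicate 1 stood apart: its mean over 6 gastric surface (pit) genes was 13.40, within the range of the tumors (12.31 to 13.85), where those of the other non-tumor arrays ran from 6.11 to 8.19, and its mast cell list mean of 8.36 also lay within the range of the tumors (7.98 to 8.98). Pancreatic acinar genes were high, with list means above 10, in wildtype replicates 1 and 3 and adjacent replicates 1 and 2, and read 7.04 to 9.45 on all other arrays. The first letter of the mouse ID, whose meaning the labels do not give, was F for wildtype replicate 1, tumor replicates 1 to 3 and adjacent replicates 1 and 2, and B for the rest. A list of 7 pan-epithelial genes averaged between 12.46 and 13.09 on every array, wildtype replicate 1 and the arrays of high acinar signal included. The list shows that epithelium was present but does not tell kinds of epithelium apart.

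Promoter sequences are shown for the 4 members with the largest fall in tumors among those with a promoter entry. RefSeq's promoter table (GRCm38.p6) held an entry for 26 of the 35 members, and the 250 bases before the start are used here. Capitals mark matches to 4 short motifs searched on both strands: TGTGGT (the core bound by RUNX factors), GGAAGT (ETS factors), GGTGTG (T-box factors) and TGANTCA (AP-1, any base at N). The stretches are Gzmb at chr14:56262335-56262584 on the minus strand, Gzma at chr13:113100982-113101231 on the minus strand, Cd3g at chr9:44980432-44980681 on the minus strand and Nkg7 at chr7:43436888-43437137 on the plus strand, each written 5′ to 3′ along its gene.
Gzmb: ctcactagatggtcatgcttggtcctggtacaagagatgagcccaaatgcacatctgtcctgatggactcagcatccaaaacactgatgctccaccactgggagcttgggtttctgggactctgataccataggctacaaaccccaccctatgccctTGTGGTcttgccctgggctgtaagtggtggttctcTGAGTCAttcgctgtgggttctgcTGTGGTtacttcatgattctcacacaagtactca
Gzma: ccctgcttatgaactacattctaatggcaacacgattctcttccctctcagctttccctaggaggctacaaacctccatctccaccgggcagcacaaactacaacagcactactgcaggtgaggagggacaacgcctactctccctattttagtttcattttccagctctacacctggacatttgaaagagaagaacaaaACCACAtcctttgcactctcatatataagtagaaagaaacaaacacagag
Cd3g: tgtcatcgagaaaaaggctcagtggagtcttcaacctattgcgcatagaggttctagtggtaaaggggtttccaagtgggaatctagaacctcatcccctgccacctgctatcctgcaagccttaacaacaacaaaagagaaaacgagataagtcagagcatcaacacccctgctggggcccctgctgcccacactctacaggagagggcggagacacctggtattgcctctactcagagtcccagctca
Nkg7: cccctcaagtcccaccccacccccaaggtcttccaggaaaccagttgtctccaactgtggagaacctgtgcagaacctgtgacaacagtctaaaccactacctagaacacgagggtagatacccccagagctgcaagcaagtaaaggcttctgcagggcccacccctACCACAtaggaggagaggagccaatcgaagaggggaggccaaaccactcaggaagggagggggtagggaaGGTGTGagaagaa
The Gzmb stretch held TGTGGT at 93 and at 34 bases before the start and an AP-1 match at 58 bases before it, counting to the first base of each match. The Gzma stretch held the reverse complement of TGTGGT at 50 bases before the start, and that of Nkg7 held it at 83 bases and GGTGTG at 13 bases. No match to these letters lay in the Cd3g window. TGTGGT was found in 9 of the 26 members' windows and in 14.2% of all 27025 windows of the same length in the table. GGAAGT was in 10 of 26 members and 19.99% of all windows, GGTGTG in 6 of 26 and 16.2%, and TGANTCA in 1 of 26, that of Gzmb, and 6.87%. Of the 18 members with an entry that were lower in tumors, 6 held TGTGGT, 8 GGAAGT and 6 GGTGTG, beside 3, 2 and 0 of the 8 that were not called. A match describes these letters and is not a binding site.

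Most of the T and NK cell genes were lower in tumors than in the adjacent duodenum of Lrig1-null mice. The cytotoxic granzymes led, with Gzmb 9.02-fold and Gzma 8.28-fold lower, followed by the CD3 chain gene Cd3g (7.74-fold), the T cell surface gene Cd7 (6.27-fold), the granule gene Nkg7 (5.96-fold), Cd96 (4.87-fold), Cd3e (4.86-fold) and Cd8a (4.29-fold). At an adjusted p below 0.05, 26 of the 35 members were lower and 0 were higher, where 31.7% of all genes tested passed, 12.6% lower and 19.1% higher. The median change over the 35 was -0.73 on the log2 scale, beside 0.043 over all genes. All 5 adjacent values lay above all 6 tumor values for 27 members (6.84% of all genes were so ordered, and 17.2% did not overlap in either direction), and 28 were lower in tumor in all 5 mice with both tissues (13.3% of all genes). Of the 26, 11 changed by 2-fold or more. The fold changes come from a fit with the mouse as a random block and can differ slightly from the difference of the group means. In samples of mixed cells, fewer T or NK cells and less RNA per cell cannot be told apart. The non-tumor groups were labelled as epithelium and the tumor group was not. A difference in the tissue sampled therefore cannot be told apart from these either.

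**Figure D1:**
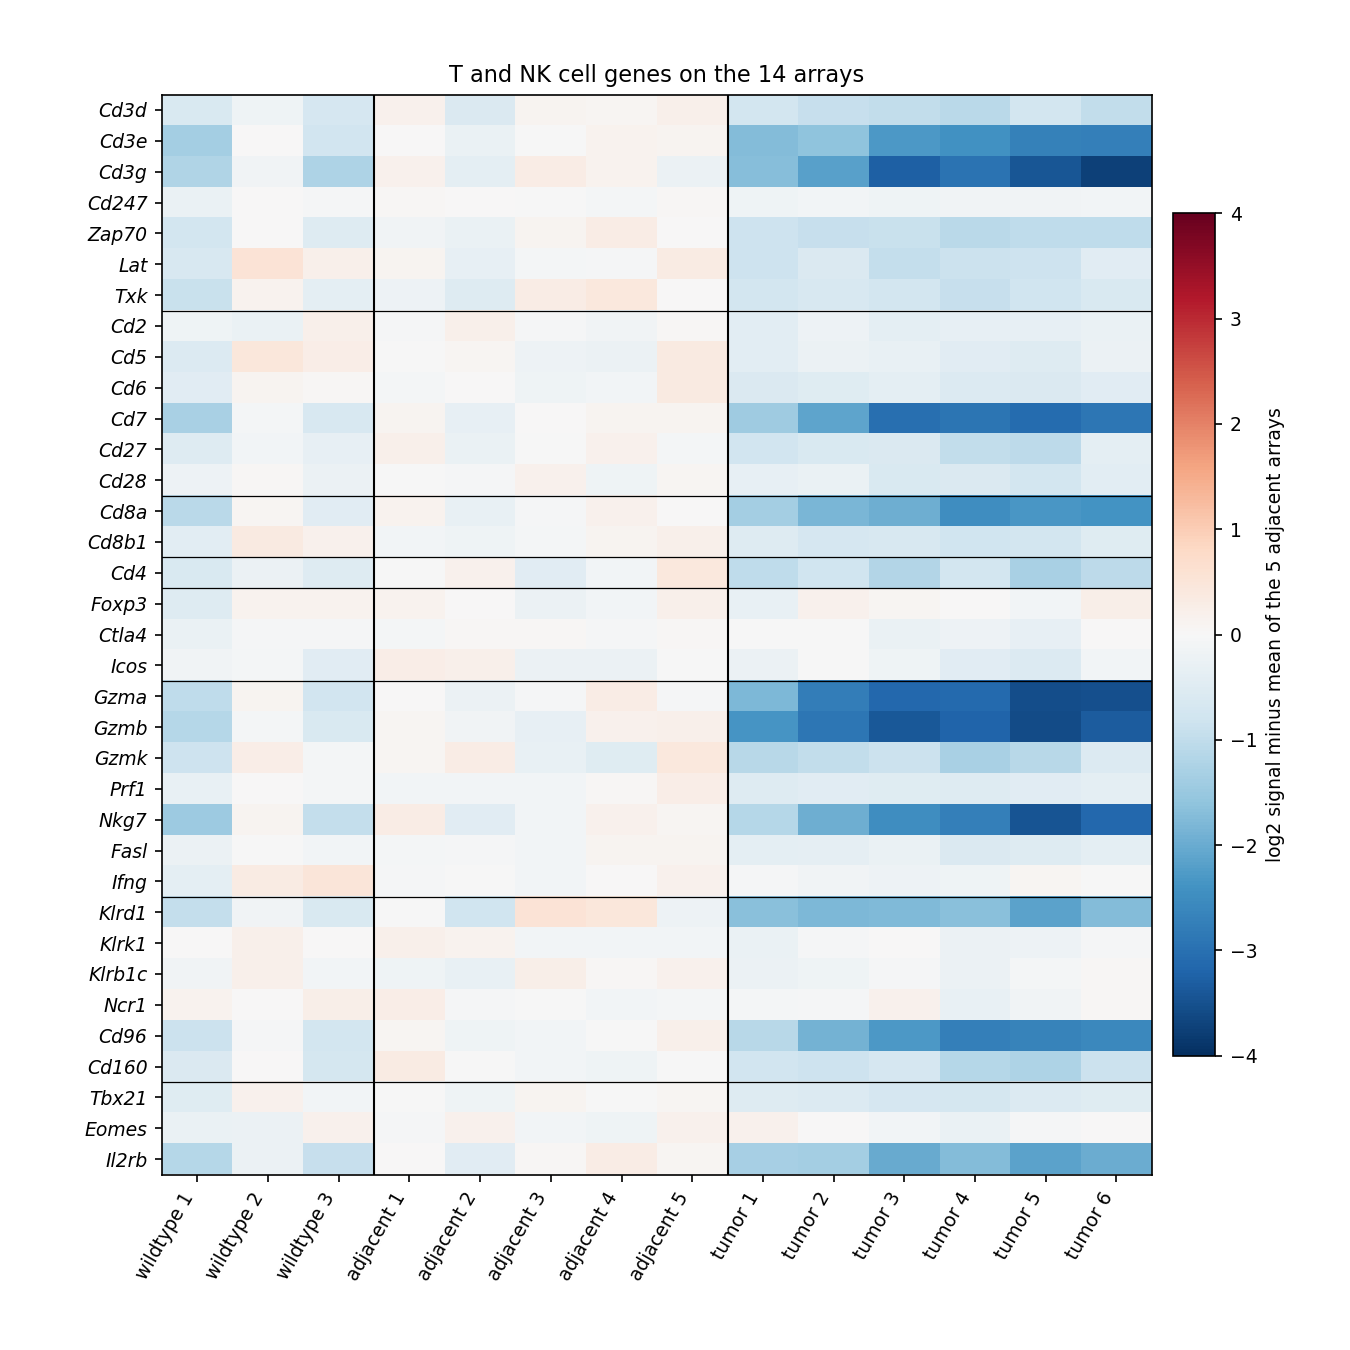
Log2 signal of the 35 genes (rows, grouped by role with black lines between groups) on the 14 arrays (columns), each as its difference from the gene's mean over the 5 adjacent arrays; blue is lower and red is higher. The tumor columns are blue for Gzmb, Gzma, Cd3g, Cd7, Nkg7, Cd3e, Cd96 and Cd8a, wildtype replicate 1 is lower than the other wildtype arrays for most rows, and Foxp3, Eomes and Ncr1 stay pale throughout.

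Among the T cell receptor genes, 6 of 7 fell in tumors against adjacent tissue and 4 of 7 also passed against wildtype. Cd3g (transcript cluster 10593015), the gamma chain of CD3, read 10.78, 10.23, 10.91, 10.76 and 10.38 in adjacent replicates 1 to 5, 9.40, 10.48 and 9.37 in wildtype replicates 1 to 3, and 6.87 to 8.90 (median 7.498) over the tumors. Every non-tumor array lay above every tumor, with the tumor of replicate 1 nearest, at 8.90. The log2 fold change was -2.95 ± 0.27 (SE; adjusted p = 2.95e-06) against adjacent tissue and -2.01 ± 0.39 (adjusted p = 0.00397) against wildtype. Cd3e (10593024), the epsilon chain, read 10.88, 10.60, 10.86, 11.01 and 10.99 in adjacent tissue, 9.52, 10.88 and 10.11 in wildtype and 8.13 to 9.27 (median 8.51) in tumors. Again no tumor reached a non-tumor array, although wildtype replicate 1 came close. Its log2 fold change was -2.28 ± 0.21 (adjusted p = 2.82e-06) against adjacent tissue and -1.55 ± 0.30 (adjusted p = 0.00392) against wildtype. Cd3d, the delta chain, read 7.21, 6.48, 7.16, 7.12 and 7.24 in adjacent tissue, 6.44, 6.88 and 6.38 in wildtype and 5.97 to 6.31 (median 6.10) in tumors, where adjacent replicate 2 was the low array of its group. It fell by 0.91 against adjacent tissue (adjusted p = 4.46e-05) but did not pass against wildtype (-0.43, adjusted p = 0.117).

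Zap70, the kinase recruited to the phosphorylated CD3 chains, read 7.69, 7.57, 7.94, 8.12 and 7.86 in adjacent tissue, 7.09, 7.85 and 7.31 in wildtype and 6.75 to 6.996 (median 6.87) in tumors. It was lower in tumors, with changes of -0.97 ± 0.11 (adjusted p = 1.42e-05) against adjacent tissue and -0.55 ± 0.16 (adjusted p = 0.0313) against wildtype. Lat, the membrane adaptor that ZAP-70 phosphorylates, read 8.24, 7.79, 8.04, 8.07 and 8.45 in adjacent tissue, 7.48, 8.67 and 8.34 in wildtype and 7.16 to 7.65 (median 7.30) in tumors. Wildtype replicate 1 lay among the tumors for Lat while the other wildtype arrays lay above most adjacent values, and the changes were -0.75 ± 0.14 (adjusted p = 0.00102) and -0.79 ± 0.20 (adjusted p = 0.0185). Txk, a Tec-family kinase of T cells, read 7.47, 7.16, 7.97, 8.08 and 7.67 in adjacent tissue, 6.78, 7.80 and 7.29 in wildtype and 6.74 to 7.05 (median 6.93) in tumors. It passed against adjacent tissue (-0.75 ± 0.16, adjusted p = 0.00195), while wildtype replicate 1 lay below every tumor but 1 and the change against wildtype of -0.37 did not pass (adjusted p = 0.331). Cd247, the zeta chain through which the receptor also signals, read 7.26 to 7.40 in adjacent tissue, 7.08 to 7.37 in wildtype and 7.17 to 7.24 in tumors. All adjacent values lay above all tumor values, but the change of -0.14 ± 0.056 had an adjusted p of 0.083. Cd247 passed, lower in tumors, in 3 of 28 alternatives: arrays centred on their medians, quantile normalization and array weights. In these 32.1%, 32.4% and 40% of all genes passed.

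All 6 surface and costimulatory genes were lower in tumors than in adjacent tissue, and 1 of them, Cd7, passed against wildtype. Cd7 (10394054), an immunoglobulin-family protein of T and NK cells, read 11.78, 11.33, 11.69, 11.78 and 11.77 in adjacent tissue, 10.38, 11.60 and 11.03 in wildtype and 8.58 to 10.26 (median 8.76) in tumors. Its tumor values were spread, with replicates 1 and 2 at 10.26 and 9.56 and the other 4 between 8.58 and 8.77, all below every non-tumor array. The log2 fold change was -2.65 ± 0.24 (adjusted p = 2.55e-06) against adjacent tissue and -1.90 ± 0.34 (adjusted p = 0.00262) against wildtype. Cd27, a costimulatory receptor of the tumor necrosis factor receptor family, read 7.31, 6.82, 7.08, 7.26 and 7.03 in adjacent tissue, 6.59, 6.98 and 6.76 in wildtype and 6.04 to 6.71 (median 6.42) in tumors, a change of -0.73 ± 0.12 against adjacent tissue (adjusted p = 0.000275). Cd28, the main costimulatory receptor of naive T cells, read 6.87, 6.83, 7.06, 6.72 and 6.97 in adjacent tissue, 6.70, 6.94 and 6.64 in wildtype and 6.14 to 6.64 (median 6.39) in tumors, a change of -0.50 ± 0.085 (adjusted p = 0.000392). For both genes the tumors lay below every adjacent array, and against wildtype the changes of -0.41 and -0.36 did not pass (adjusted p = 0.13 and 0.0632).

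Cd6, a surface receptor related to CD5, read 7.54, 7.63, 7.45, 7.51 and 7.999 in adjacent tissue, 7.16, 7.74 and 7.67 in wildtype and 7.04 to 7.22 (median 7.10) in tumors, and fell by 0.51 against adjacent tissue (adjusted p = 0.000976). Cd2, an adhesion receptor of T and NK cells, read 6.57, 6.84, 6.59, 6.48 and 6.68 in adjacent tissue, 6.47, 6.36 and 6.83 in wildtype and 6.22 to 6.41 (median 6.30) in tumors, and fell by 0.32 (adjusted p = 0.00646). Cd5, which dampens T cell receptor signalling, read 7.81, 7.87, 7.60, 7.58 and 8.17 in adjacent tissue, 7.26, 8.26 and 8.06 in wildtype and 7.28 to 7.58 (median 7.46) in tumors. In these 3 genes the steps between tumor and adjacent tissue were small, with the lowest adjacent value above the highest tumor value by less than the spread within either group for Cd5. The call for Cd5 (-0.36 ± 0.13, adjusted p = 0.047) was lost in 17 of 28 alternative analyses. Against wildtype none of the 3 passed, at -0.41, -0.25 and -0.41 for Cd6, Cd2 and Cd5 (adjusted p = 0.0626, 0.177 and 0.159).

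**Figure D2:**
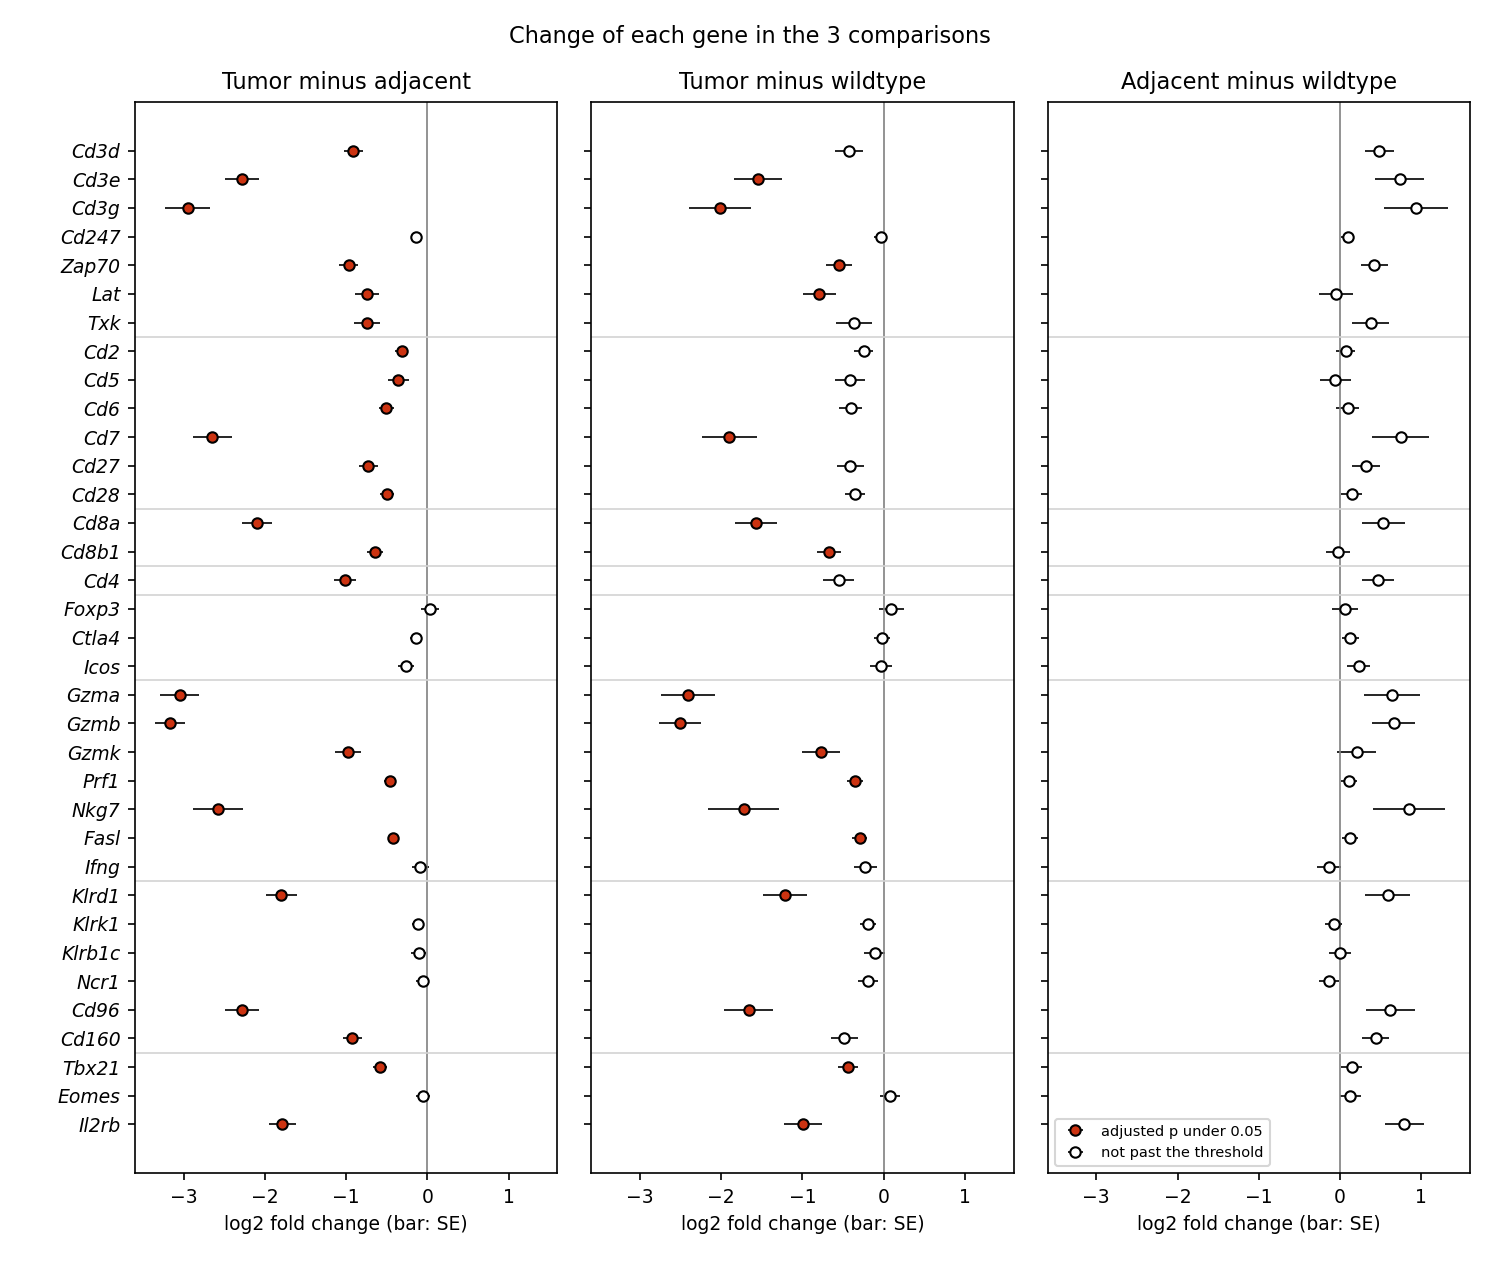
Log2 fold change (bars: SE) for the 35 genes in tumor minus adjacent, tumor minus wildtype and adjacent minus wildtype (3 panels, same gene order). Filled points passed an adjusted p of 0.05: 26 in the first panel and 17 in the second, all lower, and 0 in the third.

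Both CD8 genes fell in tumors, with a larger change for Cd8a, the gene of higher signal. The test of their ratio, given further on, did not pass after adjustment. Cd8a (10538993), the alpha chain, which intraepithelial lymphocytes can carry as a pair of alpha chains, read 9.95, 9.50, 9.76, 9.97 and 9.83 in adjacent tissue, 8.72, 9.89 and 9.34 in wildtype and 7.33 to 8.43 (median 7.67) in tumors. No tumor reached a non-tumor array, and the log2 fold changes were -2.10 ± 0.18 (adjusted p = 2.04e-06) against adjacent tissue and -1.57 ± 0.26 (adjusted p = 0.00178) against wildtype. Cd8b1 (10538979), the beta chain found with alpha on conventional CD8 T cells, read 7.04, 6.98, 7.07, 7.26 and 7.35 in adjacent tissue, 6.71, 7.49 and 7.31 in wildtype and 6.34 to 6.66 (median 6.49) in tumors. Here too the tumors lay below all other arrays, and the changes were -0.65 ± 0.10 (adjusted p = 0.000232) and -0.67 ± 0.15 (adjusted p = 0.00837). Cd4 (10547894), the coreceptor of helper and regulatory T cells, read 8.31, 8.503, 7.85, 8.19 and 8.72 in adjacent tissue, 7.69, 8.08 and 7.79 in wildtype and 7.01 to 7.57 (median 7.29) in tumors. It fell by 1.02 against adjacent tissue (SE 0.14, adjusted p = 4.81e-05); all tumors also lay below all wildtype arrays, but the change of -0.56 ± 0.19 did not pass (adjusted p = 0.0682).

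None of the 3 regulatory members passed at an adjusted p of 0.05 in any comparison as fitted, though Icos passed in some alternatives. Foxp3 (10598292), the transcription factor that defines regulatory T cells, read 7.26, 7.14, 6.88, 7.01 and 7.33 in adjacent tissue, 6.61, 7.26 and 7.26 in wildtype and 6.83 to 7.35 (median 7.17) in tumors. The groups overlapped throughout, wildtype replicate 1 was the lowest array of all, and the tumor was above its adjacent tissue in all 5 mice by small steps. The change of 0.032 ± 0.11 had an adjusted p of 0.877. Icos (10346799), an inducible costimulator of activated and regulatory T cells, read 7.45, 7.38, 6.96, 6.96 and 7.19 in adjacent tissue, 7.04, 7.11 and 6.72 in wildtype and 6.63 to 7.18 (median 6.98) in tumors. It was lower in tumor in all 5 mice although the groups overlapped, and its change of -0.26 ± 0.098 had an adjusted p of 0.0555 (unadjusted p = 0.0179). It passed, lower in tumor, in 7 of 28 alternatives, which include the fit with the mouse as a fixed replicate block over the 5 mice with both tissues (adjusted p from 0.0169 to 0.36 over all 28). Ctla4, an inhibitory receptor that competes with CD28, read 6.22 to 6.34 in adjacent tissue, 6.003 to 6.25 in wildtype and 5.95 to 6.31 in tumors, with a change of -0.14 ± 0.072 (adjusted p = 0.155). Mean signals over all arrays stood at percentile 39.3 for Foxp3, 37.5 for Icos and 21.9 for Ctla4 among all genes. The number of regulatory T cells was not tested.

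Of the 7 cytotoxic effector genes, 6 fell in tumors against both non-tumor groups. Gzmb (10420308), which encodes granzyme B, a serine protease that triggers death of the target cell, read 10.44, 10.24, 10.05, 10.54 and 10.55 in adjacent tissue, 9.23, 10.27 and 9.76 in wildtype and 6.79 to 8.02 (median 7.10) in tumors. The gap between the lowest non-tumor array, 9.23 in wildtype replicate 1, and the highest tumor, 8.02 in replicate 1, exceeded 1 log2 unit. The changes were -3.17 ± 0.18 (adjusted p = 1.36e-07) against adjacent tissue and -2.51 ± 0.26 (adjusted p = 0.000144) against wildtype. Gzma (10412211), which encodes the trypsin-like granzyme A, read 10.82, 10.59, 10.78, 11.13 and 10.78 in adjacent tissue, 9.80, 10.92 and 10.04 in wildtype and 7.28 to 9.03 (median 7.70) in tumors. It was likewise separate in every array, with changes of -3.05 ± 0.24 (adjusted p = 8.98e-07) and -2.41 ± 0.33 (adjusted p = 0.00069). Nkg7 (10552406), a membrane protein of cytotoxic granules, read 10.56, 9.81, 10.15, 10.43 and 10.35 in adjacent tissue, 8.81, 10.36 and 9.32 in wildtype and 6.82 to 9.11 (median 7.65) in tumors. Tumor replicate 1, at 9.11, lay above wildtype replicate 1, so that the groups overlapped there, and the changes were -2.58 ± 0.31 (adjusted p = 1.98e-05) and -1.72 ± 0.43 (adjusted p = 0.0169).

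Gzmk, a granzyme of memory CD8 T cells, read 7.45, 7.65, 7.06, 6.88 and 7.80 in adjacent tissue, 6.53, 7.64 and 7.30 in wildtype and 6.07 to 6.81 (median 6.32) in tumors. It fell by 0.98 against adjacent tissue (adjusted p = 0.000336) and by 0.77 against wildtype (adjusted p = 0.0378), with wildtype replicate 1 inside the tumor range. Prf1, the pore-forming perforin, read 7.42, 7.44, 7.42, 7.59 and 7.80 in adjacent tissue, 7.24, 7.55 and 7.47 in wildtype and 7.004 to 7.13 (median 7.07) in tumors. The tumors were tightly grouped below all other arrays, and the changes were -0.47 ± 0.071 (adjusted p = 0.000148) and -0.35 ± 0.10 (adjusted p = 0.0292). Fasl, the ligand of the death receptor Fas, read 6.29, 6.34, 6.28, 6.48 and 6.49 in adjacent tissue, 6.14, 6.36 and 6.26 in wildtype and 5.81 to 6.10 (median 5.98) in tumors, and fell by 0.42 (adjusted p = 0.000206) against adjacent tissue. Against wildtype its change of -0.29 ± 0.094 lay at the threshold (adjusted p = 0.04997) and was kept in 7 of 25 alternatives. Ifng, the cytokine interferon gamma, read 6.42 to 6.70 in adjacent tissue, 6.16 to 7.01 in wildtype and 6.35 to 6.60 in tumors, and its changes of -0.089 ± 0.10 and -0.22 ± 0.15 did not pass (adjusted p = 0.601 and 0.373).

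The NK-type receptors divided, with 3 of 6 lower in tumors than in adjacent tissue and 2 of 6 lower than in wildtype. Cd96 (10439744), a receptor of T and NK cells that binds the adhesion molecule CD155, read 9.12, 8.87, 8.93, 9.04 and 9.25 in adjacent tissue, 8.18, 8.998 and 8.31 in wildtype and 6.32 to 7.92 (median 6.61) in tumors. All tumors lay below all other arrays, and the changes were -2.28 ± 0.21 (adjusted p = 2.82e-06) and -1.66 ± 0.30 (adjusted p = 0.00269). Klrd1 (10542214), or CD94, the partner of the NKG2 receptors, read 7.90, 7.11, 8.46, 8.37 and 7.71 in adjacent tissue, 6.95, 7.77 and 7.29 in wildtype and 5.78 to 6.25 (median 6.16) in tumors. Adjacent replicate 2 was low and replicates 3 and 4 high, yet all stood above the tumors, with changes of -1.80 ± 0.19 (adjusted p = 7.2e-06) and -1.22 ± 0.27 (adjusted p = 0.00878). Cd160, a receptor of NK cells and intraepithelial lymphocytes, read 7.64, 7.32, 7.22, 7.15 and 7.29 in adjacent tissue, 6.74, 7.34 and 6.61 in wildtype and 6.08 to 6.65 (median 6.48) in tumors, and fell by 0.93 (adjusted p = 3.16e-05) against adjacent tissue. Against wildtype, where replicate 3 lay inside the tumor range, its change of -0.49 ± 0.16 did not pass (adjusted p = 0.0641).

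The 3 other NK-type receptors did not pass in any comparison as fitted. Klrb1c passed, lower in tumors, with array weights in both tumor comparisons. It also passed against adjacent tissue with only the low-acinar non-tumor arrays, where 30.2% of all genes did. Klrk1 passed, lower in tumors, against wildtype with array weights. With array weights 40% of all genes passed against adjacent tissue and 47.8% against wildtype. Klrk1, the activating receptor NKG2D, read 5.23 to 5.53 in adjacent tissue, 5.35 to 5.53 in wildtype and 5.08 to 5.37 in tumors (change -0.12 ± 0.071, adjusted p = 0.255). Klrb1c, the NK1.1 antigen, read 4.86 to 5.39, 5.02 to 5.36 and 4.92 to 5.19 in the same order (-0.11 ± 0.093, adjusted p = 0.438). Ncr1, the receptor NKp46 that marks NK cells and some innate lymphoid cells, read 5.65 to 6.04, 5.81 to 6.01 and 5.47 to 5.96 (-0.061 ± 0.085, adjusted p = 0.67). The mean signal of Klrk1 over all arrays stood at percentile 9.7, of Klrb1c at 7.8 and of Ncr1 at 15.3 among all genes, and no detection call accompanied the values. Of the members that fell, Klrd1, Cd96, Cd160, Nkg7 and the granzymes are made by cytotoxic T cells as well as NK cells, and the share of each cell type in these changes was not tested.

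Of the T-box and receptor-chain genes, 2 of 3 were lower in tumors in both comparisons. Il2rb (10430344), the beta chain shared by the receptors for interleukin-2 and interleukin-15, read 9.13, 8.66, 9.14, 9.40 and 9.19 in adjacent tissue, 7.98, 8.86 and 8.18 in wildtype and 6.96 to 7.79 (median 7.25) in tumors. No tumor reached a non-tumor array, and the changes were -1.79 ± 0.16 (adjusted p = 2.73e-06) and -0.995 ± 0.23 (adjusted p = 0.0114). Tbx21, which encodes T-bet, a transcription factor of type 1 and cytotoxic lymphocytes, read 7.46, 7.31, 7.58, 7.47 and 7.56 in adjacent tissue, 6.99, 7.66 and 7.35 in wildtype and 6.76 to 7.0002 (median 6.94) in tumors. Its changes were -0.58 ± 0.087 (adjusted p = 0.000138) and -0.44 ± 0.12 (adjusted p = 0.0297), with wildtype replicate 1 inside the tumor range. Eomes, the related T-box factor of NK and memory T cells, read 6.25 to 6.58 in adjacent tissue, 6.15 to 6.57 in wildtype and 6.15 to 6.58 in tumors, with no call (-0.054 ± 0.087, adjusted p = 0.723).

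**Figure D3:**
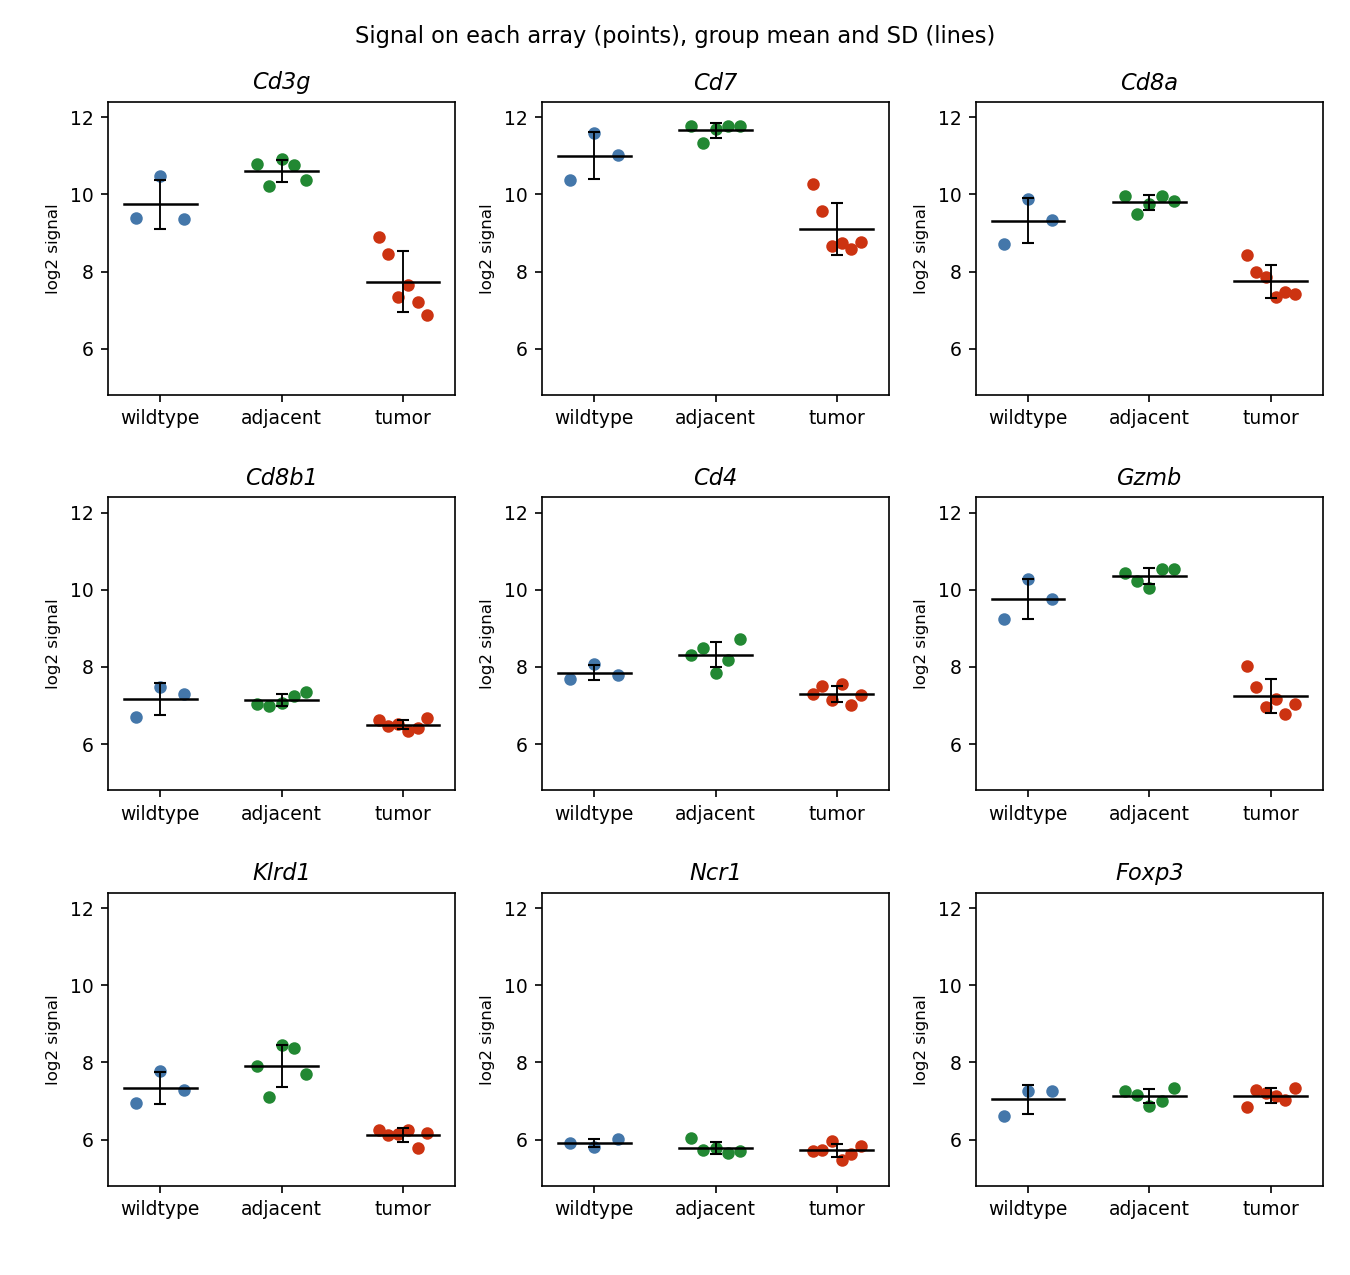
Log2 signal on each array (points) with the group mean (bar) and SD (error line) for 9 of the genes, in wildtype (n = 3), adjacent (n = 5) and tumor (n = 6), on a common axis. Tumors lie below all adjacent arrays for every gene shown except Ncr1 and Foxp3, where the groups overlap.

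Set against wildtype duodenum, 17 of the 35 members were lower in tumors and 0 were higher, where 14.1% of all genes passed, 4.48% lower. The median change was -0.43, beside -0.0023 over all genes, and 16 members had no tumor value as high as a wildtype value (5.04% of all genes, and 13.6% did not overlap in either direction). The 2 tumor comparisons share the 6 tumor arrays and are therefore given side by side, gene by gene, above. SDs over the 3 wildtype arrays reached 0.79 for Nkg7, 0.69 for Cd3e and 0.63 for Cd3g. In the same order they were 0.29, 0.16 and 0.29 in adjacent tissue and 0.83, 0.48 and 0.78 in tumors. For the 26 members that fell against adjacent tissue, wildtype replicate 1 was the lowest wildtype array in 21, and replicate 2 was the highest in 25. Replicate 1 read no higher than the highest tumor in 8 of them. For Cd5, 1 of these 8, it lay below every tumor, at 7.26 against a lowest tumor of 7.28. The mean over the 35 members was 7.27, 7.92 and 7.59 in wildtype replicates 1 to 3, and the pan-leukocyte list mean was 9.40, 9.42 and 9.05. The part of the gastric surface and mast cell transcripts of wildtype replicate 1 in these levels was not tested. Without it 22 members passed, adding Cd160, Cd4, Cd5, Cd6 and Ifng, all lower, and calls rose over all genes too, to 22.7% (7.14% lower). Without wildtype replicate 2 the count was 7, where 4.71% of all genes passed (1.68% lower), and without replicate 3 it was 9, where 5.47% did (2.32% lower). The calls for Nkg7, Lat, Gzmk, Cd8b1, Zap70, Prf1, Tbx21 and Fasl ended without replicate 2 and without replicate 3, and those for Klrd1 and Il2rb without replicate 2.

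Between adjacent and wildtype duodenum none of the 35 members passed an adjusted p of 0.05 (limma), and neither did any other of the 19938 genes (0%). In none of the 35 were the 2 groups free of overlap (2.12% of all genes were). At an unadjusted p below 0.05 there were 9 members, and 559 genes or 2.80% of all. Signals were higher in adjacent tissue for 29 of the 35, beside 47.5% of all genes, with a median of 0.21 beside -0.0092 over all genes. The largest values were 0.94 ± 0.40 for Cd3g, 0.85 ± 0.45 for Nkg7 and 0.79 ± 0.24 for Il2rb (adjusted p = 0.998 for each). Wildtype replicate 2 lay within or above the adjacent range for 25 of the 26 members named above, and replicate 1 lay below every adjacent array for all 26. Without wildtype replicate 1 the median was 0.11. With array weights 4 members passed, Cd5, Cd8b1, Ifng and Lat, all lower in adjacent tissue, where 8.48% of all genes passed.

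Log ratios of pairs of genes within each array were compared to show whether members changed unequally. Cd8a minus Cd4 read 1.64, 0.99, 1.90, 1.78 and 1.11 in adjacent replicates 1 to 5, 1.02, 1.80 and 1.56 in wildtype and 1.13, 0.47, 0.73, -0.24, 0.46 and 0.14 in tumor replicates 1 to 6. It was lower in tumor in 5 of 5 mice, with a mean difference of -1.17 ± 0.68 (SD, n = 5; exact two-sided sign-flip permutation p = 0.0625, the smallest that 5 pairs allow), so that Cd8a fell by more than Cd4 in each mouse. Cd8b1 minus Cd8a read -2.91, -2.52, -2.69, -2.71 and -2.48 in adjacent tissue, -2.004, -2.39 and -2.03 in wildtype and -1.82, -1.51, -1.35, -0.99, -1.06 and -0.74 in tumors, with no overlap between the groups of tumor and non-tumor arrays. It was higher in tumor by 1.53 ± 0.24 (5 of 5 mice, exact permutation p = 0.0625), by 0.90 against wildtype (p = 0.0238) and differed by -0.52 between adjacent tissue and wildtype (p = 0.0357).

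Gzmb minus Cd3e was lower in tumor in 5 of 5 mice, at -0.93 ± 0.38 (exact permutation p = 0.0625), and differed from wildtype by -0.96 (p = 0.0238), while Gzma minus Gzmb differed by 0.069 ± 0.21 (p = 0.562), higher in 3 of 5 mice. Foxp3 minus Cd4 was higher in tumor in 5 of 5 mice, by 1.09 ± 0.40 (exact permutation p = 0.0625), and by 0.65 against wildtype (p = 0.0238). Klrd1 minus Cd3e was higher in 4 of 5 mice, by 0.53 ± 0.63 (exact permutation p = 0.125). Against Ptprc, the gene for the general leukocyte marker CD45, Cd3e was lower in tumor in 5 of 5 mice, at -1.10 ± 0.43, and Cd8a at -0.94 ± 0.44 (exact permutation p = 0.0625 each), whereas Cd4 was higher in 4 of 5 mice by 0.23 ± 0.32 (p = 0.125). The pairs with Ptprc were added after the values were seen. Over all 27 tests, 9 pairs in 3 comparisons, the smallest adjusted p was 0.153 and none passed; the smallest possible p were 0.0625 for 5 mice, 0.0238 for 6 against 3 arrays and 0.0357 for 5 against 3. A ratio within an array shows unequal change on this scale. Low signals can understate changes, which was not tested here.

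**Figure D4:**
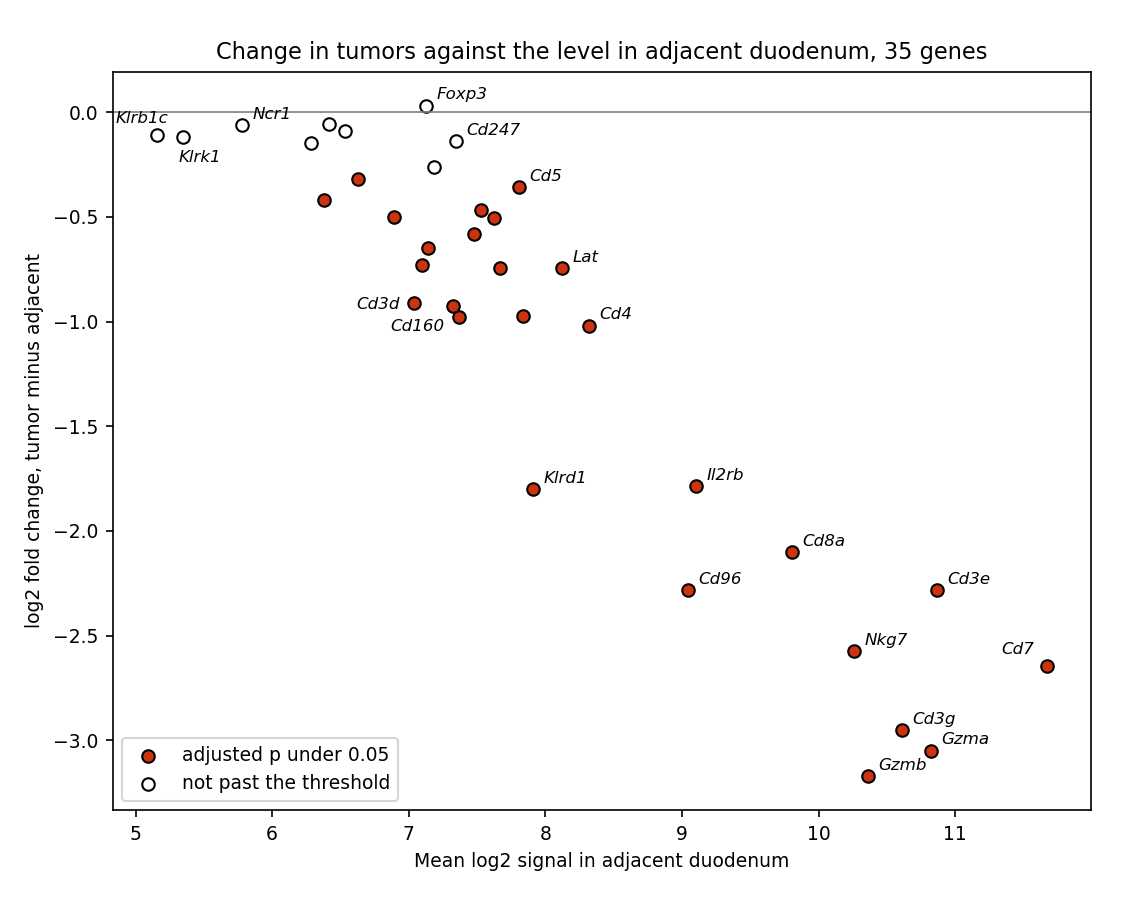
Log2 fold change in tumor minus adjacent (vertical axis) against the mean log2 signal in adjacent tissue (horizontal axis) for the 35 genes; filled points passed an adjusted p of 0.05. The 9 genes that did not pass lie between 5.16 and 7.35 on the horizontal axis and the genes to their right all fell in tumors.

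The size of the fall went with the signal that a gene had in adjacent tissue. Over the 35 members, Pearson's r between the adjacent mean and the tumor change was -0.92 and Spearman's rho was -0.87. This is a description across genes, which are not independent replicates: all were read on the same arrays, the adjacent mean enters both axes, and signal also depends on the probes. The 9 members that did not pass had adjacent means of 5.16 to 7.35, and 7 of the 26 that fell lay below the highest of these. At similar adjacent means, Cd247 (7.35) and Foxp3 (7.12) did not pass, while Cd160 (7.32) and Gzmk (7.37) changed by -0.93 and -0.98.

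The tumors differed among themselves. Tumor replicate 1 was the highest tumor for 11 of the 26 members that fell and replicate 6 for 8, and the mean over the 35 members was 7.10 in replicate 1, 7.02 in replicate 2 and 6.65 to 6.83 in the other 4. Nkg7 read 9.11 and 8.30 in tumor replicates 1 and 2 and 6.82 to 7.78 in the others, and Cd96 read 7.92 and 7.14 against 6.32 to 6.76. Replicates 1 and 2 were picked for leaving out after these member means were seen, so their omission does not test the fall. Without these 2 tumors 25 members passed against adjacent tissue, where 27.3% of all genes did, with a median of -0.74 beside 0.055 over all genes. The mouse ID letter followed this difference only in part: tumor replicates 1 to 3 carried F, and replicate 3 had a mean of 6.83. In adjacent tissue the letter cannot be told apart from pancreatic acinar signal, since replicates 1 and 2 held both F and the high acinar signal. Within letter F (3 tumors, 2 adjacent) 16 members passed, where 8.62% of all genes did, with a median of -0.49, and within letter B (3 and 3) 24 passed, where 28.6% did, with a median of -0.79. The change of Cd3e was -1.77 within F and -2.71 within B, that of Nkg7 -1.89 and -3.16, and that of Cd8a -1.69 and -2.45. The interaction of tissue and letter passed for 0 members in limma (12 at an unadjusted p below 0.05) and for 7 of 19938 genes (2325 unadjusted), with an adjusted p of 0.20 for Cd3e, 0.289 for Nkg7 and 0.22 for Cd8a.

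Genes outside the set that serve the same cells were read from fixed lists. Of 18 further genes of T cell receptor signalling with a value, 14 fell in tumors against adjacent tissue and 1 rose. Among all genes tested, 12.6% passed lower and 19.1% higher in this comparison. The phosphatase gene Ptpn22, a brake on receptor signalling, changed by -1.78 ± 0.15 (adjusted p = 1.33e-06), the adaptor gene Sh2d2a by -1.07 ± 0.12 (adjusted p = 1.33e-05), and Fyn, a Src-family kinase gene, by -0.98 ± 0.11 (adjusted p = 9.81e-06). Nfatc2, a calcium-dependent transcription factor also made outside T cells, was the member that rose, by 0.99 ± 0.17 (adjusted p = 0.000403). Of 15 genes for homing and residence of intraepithelial lymphocytes, 12 fell and 0 rose. They included the chemokine gene Ccl5 (-2.64 ± 0.26, adjusted p = 5e-06), Itgae, the integrin chain that binds E-cadherin (-1.73 ± 0.17, adjusted p = 4.27e-06), Ccr9, the gut-homing chemokine receptor (-1.73 ± 0.22, adjusted p = 3.52e-05), and Cd244a, a receptor of the SLAM family (-1.35 ± 0.16, adjusted p = 2.24e-05). The median change was -0.49 in the signalling list and -0.87 in the homing list, beside 0.043 over all genes.

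A list of ligands of intraepithelial lymphocytes, of the epithelium but for the vascular Madcam1, held 9 genes, of which 5 fell and 2 rose. Against adjacent tissue, 12.6% of all genes passed lower in tumors and 19.1% higher. Btnl2 and Btnl1, butyrophilin-like genes of the enterocyte of which Btnl1 helps maintain intestinal gamma-delta T cells, changed by -2.19 ± 0.19 (adjusted p = 2.28e-06) and -1.89 ± 0.19 (adjusted p = 5.35e-06). Il15, the cytokine read through Il2rb, changed by -1.96 ± 0.21 (adjusted p = 8.03e-06), with means of 9.30 ± 0.48 (SD, n = 5) next to the tumors and 7.37 ± 0.31 (n = 6) in them. Ccl25, the ligand of CCR9, changed by -1.50 ± 0.22 (adjusted p = 0.000127). The genes that rose were Cdh1, which encodes E-cadherin (0.44 ± 0.066, adjusted p = 0.000127), and Madcam1, a vascular address for lymphocytes and no epithelial ligand (0.41 ± 0.078, adjusted p = 0.000849).

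Other T cell states were read the same way, against adjacent tissue, where 12.6% of all genes passed lower and 19.1% higher. Of 10 further regulatory and checkpoint genes, 4 fell (Tigit -0.83, Havcr2 -0.77, Lag3 -0.60 and Il2ra -0.35 in log2 fold change; adjusted p = 2.36e-06, 2.75e-05, 0.000108 and 0.00652) and 1 rose, Tnfrsf18 or GITR (0.22, adjusted p = 0.0405). Of 5 genes of naive T cells, Bach2 fell (-0.54, adjusted p = 0.00182) and Ccr7 rose (0.31, adjusted p = 0.0255). Of 9 genes of type 2 and type 3 lymphocytes, Il23r fell (-0.50, adjusted p = 0.000486) and Gata3, also an epithelial factor in some tissues, rose (0.86, adjusted p = 0.00695). The medians of these 3 lists were 0.0050, -0.027 and 0.032.

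**Figure D5:**
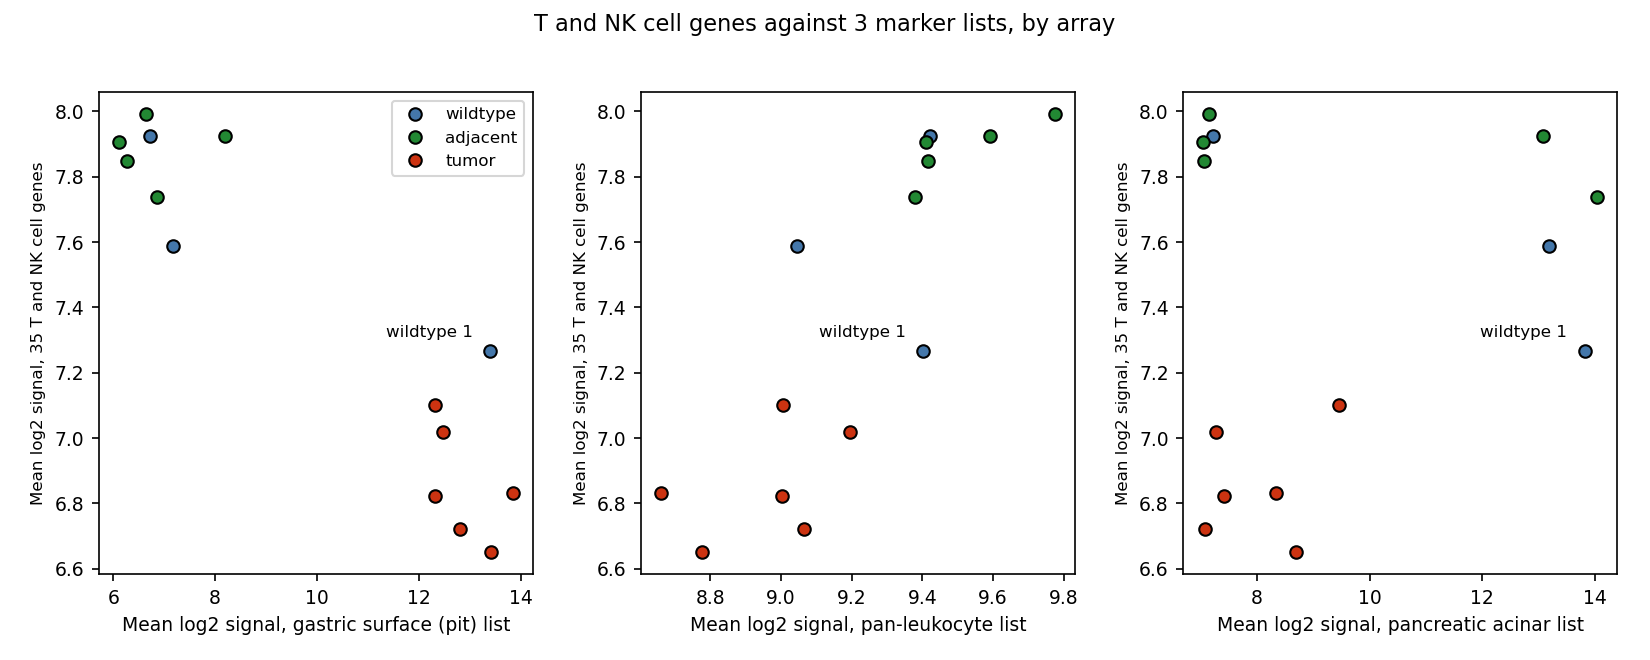
Mean log2 signal of the 35 genes (vertical axis) against the mean of the gastric surface (pit), pan-leukocyte and pancreatic acinar lists (horizontal axes, 3 panels), with 1 point an array. Wildtype replicate 1 lies with the tumors on the pit axis, at 13.40, and between the tumors and the other non-tumor arrays on the vertical axis, at 7.27.

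Markers of other cells also differed between tumors and adjacent tissue, the comparison of the counts below unless wildtype is named. In that comparison 31.7% of all genes passed, 12.6% lower and 19.1% higher. Of 10 pan-leukocyte genes 7 fell, led by Cytip (-1.40 ± 0.22, adjusted p = 0.000177), Ptprc (-1.20 ± 0.13, adjusted p = 8.16e-06), Arhgdib (-0.92) and Coro1a (-0.88; adjusted p = 3.38e-05 and 1.97e-05), and Lcp1 and Rac2 rose (0.54 and 0.64, adjusted p = 0.00558 and 0.0358); the list mean was 9.38 to 9.78 in adjacent tissue, 9.05 to 9.42 in wildtype and 8.66 to 9.19 in tumors. Of 8 B and plasma cell genes 5 fell and 0 rose, and of 10 macrophage and dendritic cell genes 7 fell and 1 rose, with list means of 8.69 to 9.29 and 8.90 to 9.43 in adjacent tissue against 7.75 to 8.81 and 8.41 to 8.98 in tumors. Mast cell genes rose in 6 of 8 and neutrophil genes in 4 of 6, with 0 lower in either list, and 1 of 6 lymphoid follicle genes fell. All 8 enterocyte genes fell, with list means of 12.56 to 13.53 in adjacent tissue, 11.67 to 13.37 in wildtype and 9.85 to 10.27 in tumors. Of the 7 pan-epithelial genes 4 rose and 1 fell, with list means of 12.46 to 12.73 in adjacent tissue and 12.71 to 13.09 in tumors, and all 6 gastric surface genes rose. None of 11 pancreatic acinar genes passed. Against wildtype, where 14.1% of all genes passed, 3 pan-leukocyte genes fell and 1 rose. Of the macrophage and dendritic cell genes 1 fell and 1 rose, and mast cell genes rose in 3 of 8. The B and plasma cell, neutrophil, lymphoid follicle and pancreatic acinar lists each had 0 genes passing there. All 8 enterocyte genes fell, 5 of 6 gastric surface genes rose, and 3 pan-epithelial genes rose and 1 fell. The part of these other cell types in the levels of the T and NK cell genes was not tested. With only the non-tumor arrays of high acinar signal, the members passing against adjacent tissue numbered 20 (10.9% of all genes passed) and against wildtype 4 (2.53%). With only those of low acinar signal they numbered 27 (30.2%) and 19 (11.5%).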

How the data were processed

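Per the labels, total RNA was isolated on columns with a DNase step, labelled with biotin and hybridised to Mouse Gene 1.0 ST arrays. Values were deposited for 35556 transcript clusters on 14 arrays, and their range showed them to be log2 signal. Affymetrix Expression Console 1.1 and the genome build mm9 are named, per the submitters' processing notes, while no background correction or normalization is given in the sources used here. The medians of the arrays ran from 7.11 to 7.29, and the main fit applied no further scaling. No detection calls accompanied the values, and the number of arrays limits the precision.

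Of the transcript clusters, 21789 had a single symbol in the platform annotation, 1621 several and 12146 none. Of the single symbols, 21698 were brought up to date by identifier through a RefSeq table (GRCm38.p6, names only) and 91 were kept. The brightest cluster stood for each of 999 genes with several, which left 19938 genes.

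Group means over all 14 arrays were fitted with limma 3.58.1 in R 4.3.3, with the mouse as a random block (duplicateCorrelation, estimated correlation 0.334) and Benjamini-Hochberg adjustment over all genes at 0.05. The spread of all 3 groups enters each error. Adjusted p-values are from this limma fit unless named otherwise. The labels name the mouse, so the pairing comes from the animal; deviations of tumor and adjacent tissue of a mouse correlated at 0.25, 0.22, 0.29, -0.030 and 0.39. Log ratios of gene pairs were tested with exact permutation tests (scipy 1.17.1), two-sided, by sign flips within mice or by exchanging group labels. The fit was tested on simulated data.

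Every member is named; of the lists of T cell, ligand and pan-leukocyte genes, up to 4 genes that passed are named, by size of change. Cdh1, Madcam1, Tnfrsf18, Lcp1 and Rac2 were added after their values were seen, and markers of other cells are given by counts and list means. The members, lists and alternatives were chosen with earlier results of these data known, and no list is tested as a whole. Alternatives changed the block, scaling, filter, weights, choice of cluster, ID letter, acinar split and left out each array.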

Additional observations from a re-analysis of the deposited data

Results flagged for a closer look

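Single arrays stood far from the rest of their group in 4 of 90 sets of values examined (35 genes, their mean and 9 log ratios of gene pairs, each in the adjacent and the tumor group), where chance gives about 1 in 20. Cd3d read 6.48 in adjacent replicate 2, below the other adjacent arrays at 7.12 to 7.24. Cd7 read 11.33 in the same array, below the others at 11.69 to 11.78. Klrd1 read 5.78 in tumor replicate 5, below the other tumors at 6.11 to 6.25. Gzmb minus Cd3e was -0.81 in adjacent replicate 3, below the others at -0.47 to -0.36.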

How the results depend on the processing

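In tumor versus adjacent tissue the count of 26 called members (31.7% of all genes passed) became 25 with no replicate block (24.1%; Cd5 lost), 27 with the mouse as a fixed replicate block (28%; Icos gained) and 16 within ID letter F (8.62%), and lay between 25 and 26 when each array was left out. Its median of -0.73 became -0.91 with the genes of lowest signal left out, -0.49 within letter F and -0.51 with only high-acinar non-tumor arrays, and lay between -0.80 and -0.64 when each array was left out. In tumor versus wildtype the count of 17 (14.1% of all genes) became 18 with no replicate block (14.6%; Cd4 gained), 29 with array weights (47.8%), 0 within letter F (0.0702%), where wildtype is 1 array assumed to vary like the other groups, and 4 with high-acinar arrays (2.53%); leaving out each array gave 7 to 22. Its median of -0.43 became -0.72, -0.15 and, with low-acinar arrays, -0.78, and -0.61 to -0.30 when each array was left out. In adjacent tissue versus wildtype the count of 0 became 4 with array weights (8.48%) and stayed 0 when each array was left out; the median of 0.21 became 0.53 within letter F and lay between 0.11 and 0.31. The cause of these shifts was not tested, and letter F and high acinar signal single out the same adjacent arrays. Gene by gene, values that had not passed changed sign in 53 of 904 alternative values for adjacent versus wildtype, 10 of 974 for tumor versus adjacent and 24 of 904 for tumor versus wildtype; none that had passed did. The block changed no other member's call. With each array centred on its median, 28 members passed against adjacent tissue (32.1% of all genes, 17.3% lower). Against wildtype 21 did (12.9%, 5.49% lower). With quantile normalization the counts were 28 (32.4%, 15.5% lower) and 18 (15%, 6.53% lower). All members passing under these scalings were lower in tumors. Signals near the bottom of the range limit what can be seen for Klrk1, Klrb1c and Ncr1.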
